A study of Mus musculus with 7 samples.

Results

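The troponin family was examined in mouse bladder through its 8 genes, Tnnc1, Tnnc2, Tnni1, Tnni2, Tnni3, Tnnt1, Tnnt2 and Tnnt3, out of 18193 genes that the platform annotation names alone on at least 1 probe set. The members were taken by name. Of the 12 probe sets that name a troponin gene alone, the one with the highest mean intensity over the 7 arrays stood for its gene, and no probe set named a troponin together with another gene. The arrays measured whole bladders of male FVB/N mice transgenic for SMGA/EGFP, a green fluorescent protein under the promoter of smooth muscle gamma-actin: 3 of adult mice (Theiler stage 28) and 3 of postnatal day 1 (P1, Theiler stage 27). All bladders carried the transgene, and none was a pool. A single reference array held wild-type FVB/N whole newborns of postnatal day 1, pooled from 4 males and 4 females. Its title speaks of bladders, while its source and dissection notes describe entire newborn mice, which is how it is treated here. Adult bladders were kept in liquid nitrogen and newborn bladders in a freezer, so that stage and storage cannot be told apart. Nothing states that the 3 bladders of a stage came from separate litters, and p-values measure the spread between these samples.

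Troponin is the calcium switch of striated muscle. Its C subunit binds calcium, its I subunit holds actin and myosin apart at rest, and its T subunit ties the complex to tropomyosin on the thin filament. Each subunit has isoforms of fast skeletal, slow skeletal and cardiac muscle, and a single gene, Tnnc1, serves slow skeletal and cardiac muscle alike. Smooth muscle, the main muscle of the bladder wall, is usually described as lacking troponin and is regulated through calmodulin and myosin light chain kinase, with caldesmon and calponin on its thin filament. RefSeq (GRCm38.p6) places 6 of the 8 genes in couples of a troponin I and a troponin T gene. Tnnt1 and Tnni3 on chromosome 7 have no protein-coding gene between them, Tnni1 and Tnnt2 on chromosome 1 have 1 (Lad1), and Tnni2 and Tnnt3, also on chromosome 7, have 1 (Lsp1).

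The samples carried the markers of bladder. Of 5 uroplakin genes of the urothelium, Upk1b, Upk3a and Upk3b passed the test as higher in P1 bladder than in the whole newborn (log2 differences of 5.96, 5.56 and 3.83), and none of the 5 lay below the array median in all 3 arrays of a stage. The median intensity ranged from 209 to 312 over the bladder arrays and was 434 in the reference. Adult replicates 1 and 3 also held transcripts of male accessory glands, with a mean log2 intensity over 7 such genes of 10.31 and 10.15, against 6.11 in adult replicate 2 and 5.95 to 6.31 in the P1 arrays. P1 replicate 3 held liver transcripts. Albumin, Alb, read 3942 there, 303 and 120.4 in P1 replicates 1 and 2 and 103031 in the whole newborn. The haemoglobin gene Hba-a1 read 16.2 in P1 replicate 3, against 21.1 and 13.3 in P1 replicates 1 and 2. Its probe set read 111.3 in the whole newborn, below that array's median, so it cannot show whether blood was present. Hybridization spike-ins were strongest in adult replicate 2, at 2.35 times the lowest array, and among P1 arrays in replicate 3, at 1.68 times. The ratio of 3′ to 5′ probe sets, a sign of RNA quality and of amplification, was 3.84 to 5.15 for Actb in adult and 1.85 to 3.70 in P1 bladder, without overlap. For Gapdh it was 15.3 to 19.6 in adult and 19.1 to 30.9 in P1 bladder, highest in replicate 2. The part of these ratios in the stage differences was not tested. In such bulk samples, fewer cells of a type and less RNA per cell cannot be told apart.

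The comparison of adult with P1 bladder asked how the organ changes from birth to maturity. Of the 8 troponin genes, 4 fell with age (Tnnc1, Tnnc2, Tnnt1 and Tnnt3), 0 rose and 4 did not pass the test, at an adjusted p under 0.05 by limma over all 45037 probe sets. Over all genes, 2.39% were called lower and 1.75% higher in adult bladder at that adjusted threshold. At an unadjusted p under 0.05, 7 of the 8 were lower and 0 higher. The share of all genes at an unadjusted p was not computed, here or for the lists below. The median log2 difference of the 8 was -2.16, against -0.03 over all genes. Differences are of log2(intensity + 49), which understates the change of dim probe sets. All 3 adult arrays lay below all 3 P1 arrays for 7 of the 8 genes, against 14.1% of all genes, Tnni1 being the exception.

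**Figure D1:**
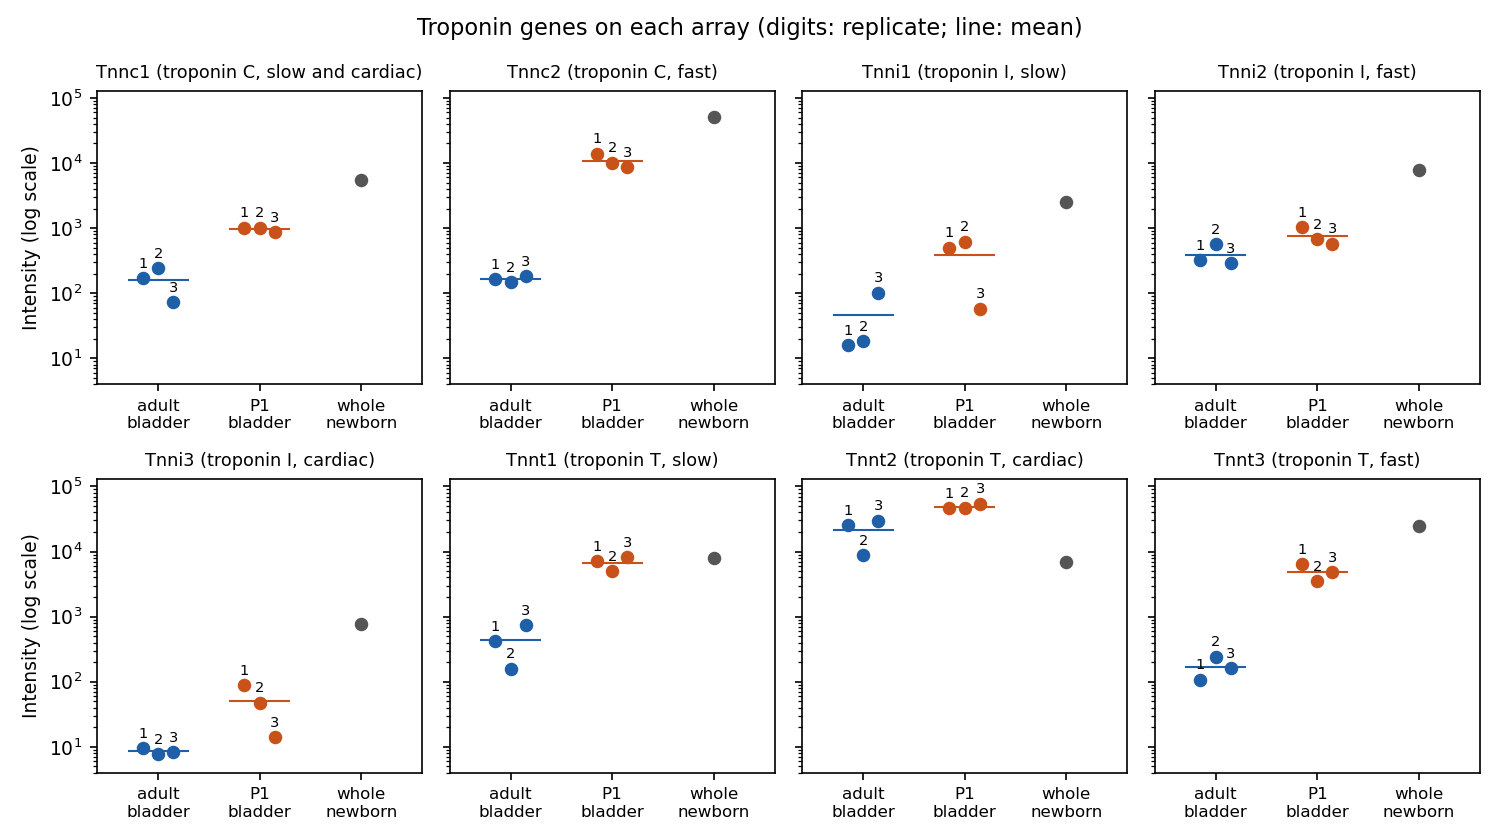
Intensity (log axis) of the probe set of each troponin gene in 3 adult bladders, 3 P1 bladders and 1 whole-newborn array. Digits number the replicates and lines are arithmetic means. Tnnc2, Tnnt1 and Tnnt3 dropped by the widest margins between the stages, and the whole newborn lay below every bladder array for Tnnt2 alone.

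Troponin C, the calcium sensor, was lower in adult bladder in both of its forms. The fast gene Tnnc2 read 163.6, 147 and 182.6 in adult replicates 1 to 3 and 13996, 10135.5 and 8635 in P1 replicates 1 to 3. The 2 groups lay far apart, and every adult value was below its array's median. The log2 difference was -5.66 (SE 0.28, adjusted p = 0.000176), with means of 164 ± 17.8 in adult and 10922 ± 2765 in P1 bladder (SD, n = 3 each). The slow and cardiac gene Tnnc1 read 171, 243 and 72.2 in adult bladder and 1009.7, 1017 and 865 in P1 bladder. The groups did not overlap, the P1 arrays were alike, and adult replicate 3 was the lowest of the adult arrays, all of them below the array median. Its log2 difference was -2.35 (SE 0.43, adjusted p = 0.0269). Leaving out adult replicate 1 or 3, or any of the P1 arrays, left Tnnc1 short of the threshold (adjusted p from 0.0676 to 0.101, log2 difference from -2.42 to -1.99), and adjusted p was 0.055 without adult replicate 2 and P1 replicate 3 together. Tnnc2 passed in all 17 alternatives.

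Troponin T, the anchor on tropomyosin, fell in 2 of its 3 genes. The fast gene Tnnt3 read 107, 243 and 161 in adult and 6414, 3465 and 4847 in P1 bladder, a log2 difference of -4.50 (SE 0.36, adjusted p = 0.00218). Adult values were again below the array median on every array. The slow gene Tnnt1 read 422, 159.7 and 736 in adult and 7067, 4996 and 8153 in P1 bladder, a log2 difference of -3.97 (SE 0.47, adjusted p = 0.00593). Adult replicate 2 was the lowest, and the other adult arrays were above their medians. Both genes passed in all 17 alternatives. The cardiac gene Tnnt2 read 25298, 8780.2 and 29910.2 in adult and 45889, 46849 and 54134 in P1 bladder. Its groups did not overlap either, but adult replicate 2 stood far below the other adult arrays. The log2 difference of -1.37 (SE 0.42, adjusted p = 0.132) did not pass. Without adult replicate 2 it was -0.83 with adjusted p = 0.0482, and without P1 replicate 3 as well it was -0.75 with adjusted p = 0.0772. A further Tnnt2 probe set, of a type that can match other transcripts, followed the first closely, with 23542, 10003 and 27823 in adult and 43281, 42426 and 50082.5 in P1 bladder (log2 difference -1.27, adjusted p = 0.11). The last Tnnt2 probe set was dim, from 50 to 351 over the bladder arrays, and differed by -0.56 (adjusted p = 0.683).

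Troponin I, the inhibitory subunit, passed the test in none of its 3 genes, although 2 of their 95% intervals, which are not adjusted, left out 0. The slow gene Tnni1 read 15.8, 18.3 and 102.5 in adult bladder and 498, 620.1 and 58.2 in P1 bladder. P1 replicate 3 lay within the adult range and the groups overlapped. Its log2 difference was -1.96 (95% interval -3.60 to -0.33, adjusted p = 0.211). The fast gene Tnni2 read 323, 566 and 290.2 in adult and 1029, 677 and 574 in P1 bladder, so that the highest adult and the lowest P1 array nearly met. Its log2 difference was -0.88 (95% interval -1.79 to 0.02, adjusted p = 0.312). This probe set can match other transcripts. A second one, not of that type, gave 201, 225 and 231 in adult and 752, 538 and 152.7 in P1 bladder. There P1 replicate 3 fell below every adult array, and the log2 difference was -0.77 (adjusted p = 0.558). The third, also not of that type, read 4.04 to 76.4 on the bladder arrays and 63.4 in the reference, below the array median on all 7. The cardiac gene Tnni3 was dim, at 7.79 to 9.61 in adult and 88.1, 47.6 and 14.1 in P1 bladder, below the array median on all 6 bladder arrays (log2 difference -0.71, 95% interval -1.38 to -0.04, adjusted p = 0.272).

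The neighbouring genes are given side by side. On chromosome 7, Tnnt1 differed by -3.97 and its neighbour Tnni3 by -0.71, and Tnnt3 by -4.50 while Tnni2 differed by -0.88. On chromosome 1 the values were -1.37 for Tnnt2 and -1.96 for Tnni1. The value of Tnni3 depends on the pseudocount, since its adult intensities lay under it: it was -1.22 with 17 and -0.29 with 165, and the mean intensity was 5.83 times higher in P1 bladder. The differences between neighbours were not tested.

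RefSeq's promoter table held windows for 6 of the 8 genes, all but Tnni2 and Tnnt3. Those of 3 genes are shown because the main results turn on them: Tnnc2 and Tnnt1, which fell with age, and Tnnt2, which was high in bladder (the first of 2 starts in the table). Each is the 150 bases before the transcription start in GRCm38.p6, written 5′ to 3′ along the gene, with motif matches in capitals.
Tnnc2, chr2:164779735-164779884, minus strand: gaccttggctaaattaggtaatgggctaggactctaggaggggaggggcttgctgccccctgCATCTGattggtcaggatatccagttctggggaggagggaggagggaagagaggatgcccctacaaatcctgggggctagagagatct
Tnnt1, chr7:4515976-4516125, minus strand: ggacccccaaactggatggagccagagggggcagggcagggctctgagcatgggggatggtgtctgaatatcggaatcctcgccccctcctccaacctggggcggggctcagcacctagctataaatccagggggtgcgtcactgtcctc
Tnnt2, chr1:135836184-135836333, plus strand: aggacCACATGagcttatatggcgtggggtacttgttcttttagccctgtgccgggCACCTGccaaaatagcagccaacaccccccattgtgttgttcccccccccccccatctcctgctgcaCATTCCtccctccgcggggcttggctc
The search covered 250 bases before each start, on both strands, for the E-box CANNTG, which myogenic regulators such as MyoD bind, the MCAT element CATTCC, known from the promoter of cardiac troponin T, and the MEF2 and CArG motifs, the sites of MEF2 and serum response factor. All 6 genes had at least 1 E-box, as did 66.2% of the 32851 windows in the table. Tnnt2 and Tnnc1 had an MCAT match, a motif found in 12.6% of windows, and in Tnnt2 it is the run of capitals nearest the start. In Tnnc2 the capitals are an E-box, whereas the E-box of Tnnt1 lies just before the stretch shown. None of the 6 had a MEF2 or CArG match in these windows, where 2.92% and 1.47% of all windows did. No MCAT match overlapped an E-box in these genes.

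The comparison of P1 bladder with the whole newborn of the same age asked which transcripts the bladder holds above or below the rest of the body. Tnnt2 was the member that stood higher in bladder: 45889, 46849 and 54134 in the P1 arrays against 6850.2 in the whole newborn, or 670% to 790.3% of its level there. The log2 difference was 2.82 (SE 0.59, adjusted p = 0.0285). Leaving out P1 replicate 1, 2 or 3 left it short of the threshold (adjusted p of 0.0662, 0.0736 and 0.0595), as did a prior variance without a trend (0.0629). The further Tnnt2 probe set that followed the first differed by 2.99 (adjusted p = 0.0116), and the dim one by 0.13 (adjusted p = 0.948). Of the other genes, 5 were lower in P1 bladder (Tnnc1, Tnnc2, Tnni2, Tnni3 and Tnnt3) and 2 did not pass, Tnni1 and Tnnt1. Over all genes, 5.47% were called lower and 2.15% higher. The reference was a single array, whose spread was taken from the bladder arrays. Its median was also the highest: centring the arrays on their medians raised P1 bladder by 0.68 log2 against it. Without centring 1860 probe sets were called lower and 565 higher in P1 bladder, with centring 962 lower and 1319 higher, and with quantile normalization 1255 lower and 893 higher.

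The fast genes Tnnc2 and Tnnt3 held similar shares of their whole-newborn level. Tnnc2 was at 27.0%, 19.6% and 16.7% of 51773 in P1 replicates 1 to 3, a log2 difference of -2.27 (SE 0.38, adjusted p = 0.0103). Tnnt3 was at 26.3%, 14.2% and 19.9% of 24359.8, a difference of -2.34 (SE 0.49, adjusted p = 0.0289). Tnnc1 was at 18.5%, 18.6% and 15.9% of 5456, a difference of -2.45 (SE 0.57, adjusted p = 0.0437). All 3 missed the threshold with median centring, at differences of -1.59, -1.66 and -1.76 and adjusted p of 0.0884, 0.0737 and 0.106. Tnnt3 also missed it without adult replicate 3 (0.0549) and without P1 replicate 2 (0.0744) or 3 (0.0554). Tnnc1 missed it without adult replicate 1 (0.0743), without P1 replicate 1, 2 or 3 (0.0889, 0.0979 and 0.0796) and with the lower pseudocount of 17 (0.0722). The shares of the 3 genes ranged from 14.2% to 27.0% of the whole newborn.

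The slow gene Tnnt1 lay on both sides of the whole newborn in P1 bladder. Its 3 P1 arrays were at 88.7%, 62.7% and 102% of 7966, a log2 difference of -0.27 with a 95% interval from -1.76 to 1.22 (adjusted p = 0.869), and the difference was 0.41 with median centring. The troponin I genes lay lower. Tnni2 was at 13.1%, 8.58% and 7.27% of 7890 (-3.33, adjusted p = 0.00836) and Tnni3 at 11.3%, 6.09% and 1.80% of 782 (-3.14, adjusted p = 0.00662), and both kept their calls in all 16 alternatives. Tnni1 was at 19.7%, 24.5% and 2.3% of 2534 (-2.93, adjusted p = 0.155). The second Tnni2 probe set differed by -4.105 (adjusted p = 0.0151), and the third, which was dim, by 0.015 (adjusted p = 0.991).

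Adult bladder was set against the same reference array, so this comparison shares its samples with both others. Of the 8 genes 7 were lower in adult bladder and 0 higher, where 7.39% of all genes were called lower. Of all probe sets, 2443 were lower and 1052 higher, 1301 and 2258 with median centring, and 1744 and 1530 with quantile normalization. The differences of the 7 ran from -3.85 for Tnni3 to -7.93 for Tnnc2, and Tnnt3 differed by -6.84. Tnni1 (-4.89, adjusted p = 0.0237) missed the threshold without adult replicate 1 (adjusted p = 0.072). Tnnt2 was at 369%, 128% and 437% of its whole-newborn level in adult replicates 1 to 3. All 3 arrays were above the reference, but the log2 difference of 1.45 (95% interval 0.11 to 2.79, adjusted p = 0.188) did not pass. It was 2.00 without adult replicate 2 (adjusted p = 0.00372) and 1.88 with array weights (adjusted p = 0.0159). The further Tnnt2 probe set differed by 1.72 (adjusted p = 0.0802), and the dim one by -0.42 (adjusted p = 0.786). The whole newborn lay above all 6 bladder arrays for 6 of the 8 genes, Tnnt1 and Tnnt2 being the others, against 28.2% of all genes.

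**Figure D2:**
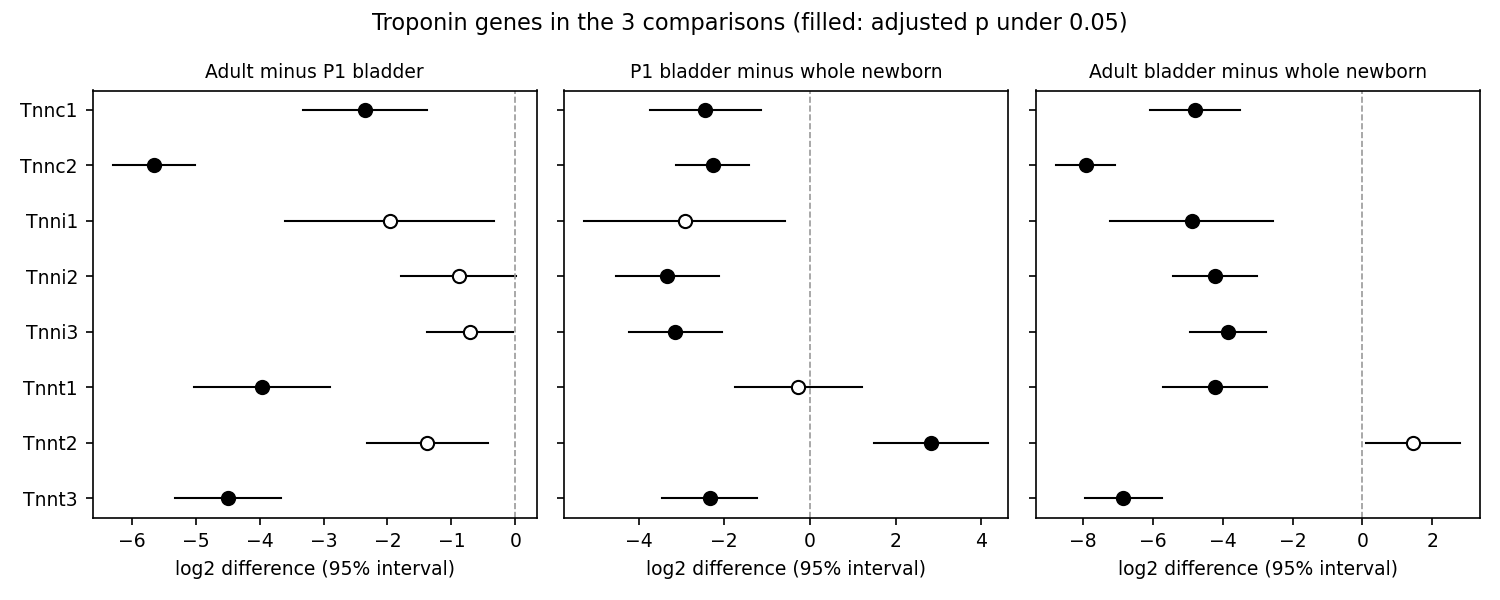
Log2 difference of each troponin gene, with its 95% interval from limma, for adult against P1 bladder, P1 bladder against the whole newborn and adult bladder against the whole newborn. Filled points passed an adjusted p under 0.05. Tnnt2 is the gene right of 0 against the whole newborn, at 2.82 in P1 and 1.45 in adult bladder.

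The isoforms of 1 subunit were contrasted through their log2 ratio within each array. The height of such a ratio depends on the probes and was not read, only its change between groups. The exact 2-sided permutation test of 3 against 3 arrays cannot go below p = 0.1, so no pair could pass, and 7 pairs were compared. For troponin C, the ratio of fast Tnnc2 to slow and cardiac Tnnc1 was -0.05, -0.58 and 0.93 in adult and 3.73, 3.26 and 3.25 in P1 bladder. The groups were apart by -3.31, with exact p = 0.1 (adjusted over 7 pairs 0.233). Both genes lay below the array median on all 3 adult arrays, so the adult ratio is between 2 dim signals. The P1 ratios lay close to the 3.24 of the whole newborn.

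For troponin T, the ratio of cardiac Tnnt2 to slow Tnnt1 was 5.75, 5.40 and 5.25 in adult and 2.69, 3.22 and 2.72 in P1 bladder, and -0.22 in the whole newborn. It was higher in adult bladder by 2.59, with exact p = 0.1. The ratio of fast Tnnt3 to cardiac Tnnt2 was -7.34, -4.92 and -7.16 in adult, -2.83, -3.74 and -3.47 in P1 bladder and 1.82 in the whole newborn. It was lower in adult bladder by a log2 difference of -3.13, with exact p = 0.1. Tnnt3 lay below the array median on all 3 adult arrays. The ratio of Tnnt3 to Tnnt1, fast against slow, overlapped between the stages (-0.53, exact p = 0.5), and was -1.28 without adult replicate 2, -0.24 without adult replicate 1 and -0.08 without adult replicate 3. Against both the slow and the fast form, then, the cardiac troponin T stood higher on every adult array than on any P1 array. The 3 pairs of troponin I genes overlapped between the stages as well, with stage differences of 0.17 to 1.25 and exact p from 0.2 to 0.6. Adult Tnni3 (7.79 to 9.61) lay under the pseudocount of 49, as did Tnni1 in adult replicates 1 and 2 (15.8 and 18.3). These adult ratios therefore depend on the pseudocount. Leaving out single arrays moved the ratio of Tnni2 to Tnni1 from 1.08 to between 0.53 (without P1 replicate 2) and 1.74 (without P1 replicate 3).

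**Figure D3:**
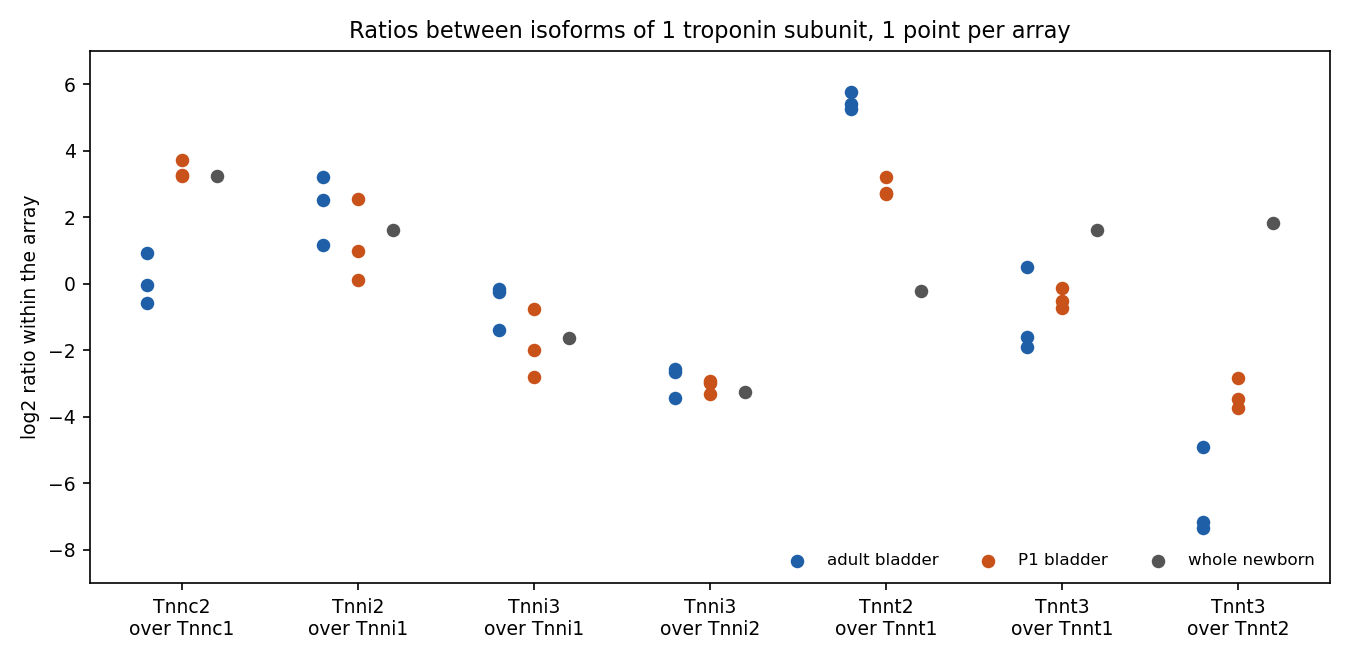
Log2 ratio of 2 isoforms of the same subunit within each array, for 7 pairs, in adult bladder, P1 bladder and the whole newborn (1 point per array). The height of a ratio depends on the probes, and only its shift between groups is read. The stages are apart for Tnnc2 over Tnnc1, Tnnt2 over Tnnt1 and Tnnt3 over Tnnt2, by -3.31, 2.59 and -3.13.

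Other muscle genes were read in lists by role. Of 5 developmental skeletal muscle genes, 4 fell in adult bladder and 0 rose, with a median of -4.67. They were the perinatal and embryonic myosins Myh8 (-6.01) and Myh3 (-5.91), the fetal light chain Myl4 (-4.67) and the adhesion molecule Ncam1 (-1.15), which neurons also express. Of 13 further thin filament genes, 3 fell and 0 rose, with a median of -0.33: the skeletal and cardiac actins Acta1 (-1.78) and Actc1 (-1.90) and the nonmuscle tropomyosin Tpm4 (-1.40). Tpm1, a tropomyosin that smooth muscle shares, differed by -0.33 and was far above the whole newborn in P1 bladder (3.37, adjusted p = 0.000483). Of 10 fast skeletal genes 1 fell, the calcium store protein Casq1 (-2.84), and of 8 slow and slow-cardiac genes 1 fell, slow myosin Myh7 (-3.76). Of 16 genes of excitation and the neuromuscular junction 1 fell, muscle creatine kinase Ckm (-2.31). None of 10 cardiac genes passed by limma in either direction, and 2 were lower and 1 higher at an unadjusted p under 0.05.

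Smooth muscle genes did not follow the troponins with age. Of 13 genes on the array listed for smooth muscle calcium regulation and thin filament, 1 fell, the calponin Cnn2 (-1.23). None rose, and the median was 0.02. Myh11, smooth muscle myosin, differed by -0.24 (adjusted p = 0.637). Against the whole newborn, 1 of these 13 was lower in P1 bladder, the kinase gene Mylk3 (-2.79, adjusted p = 0.0222). Another 9 were higher, and the median of the 13 was 2.83, which is the direction of Tnnt2. Fast skeletal genes ran the other way: 8 of 10 were lower in P1 bladder, with a median of -5.40, beside -2.27 for Tnnc2 and -2.34 for Tnnt3. The slow and slow-cardiac list had 5 of 8 lower with a median of -5.51. Of the 5 developmental genes 1 was lower and 0 higher, with a median of -0.97. Among them Myl4 was at 237%, 171% and 177% of the whole newborn in P1 replicates 1 to 3. The difference between the troponins and these lists was not tested.

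Cardiac muscle genes were mixed in bladder. Myl2, the ventricular light chain, is of the slow and slow-cardiac list. It read 3.5 to 139.5 on the bladder arrays against 23206 in the whole newborn. Of the cardiac list, myosin Myh6 read 4.1 to 575 against 15375. By limma, Pln, Myl7 and Sln had its lowest adjusted p between the stages (0.0703, 0.115 and 0.182), at log2 differences of 1.44, -2.02 and -1.58. Myl7 was at 81.9%, 63.9% and 64.8% of the whole newborn in P1 replicates 1 to 3. Of the 10 cardiac genes, 6 lay below the array median in all 3 adult arrays and 2 in all 3 P1 arrays. As many probe sets lie below an array's median as above it, and the share of all genes was not computed. Against the whole newborn 3 of the 10 were lower in P1 bladder and 1 higher. The one higher was Tbx20, a T-box factor of heart development, named here after its values were seen: it read 10558.5, 4329 and 10429 in adult and 6128, 12617 and 9952 in P1 bladder against 559 in the whole newborn (log2 difference 3.92, adjusted p = 0.00563). Ryr2, the cardiac calcium release channel, read 712 to 1615 on the bladder arrays against 1097. The mean log2 level of the list was 8.47 to 8.56 in adult, 8.80 to 9.14 in P1 bladder and 10.39 in the whole newborn. Of the 10 myogenic regulators, 0 fell and 1 rose in adult bladder, Mef2d (1.48, adjusted p = 0.0398). At an unadjusted p under 0.05, 1 was lower and 2 were higher. Myog, the factor of differentiating myoblasts, read 59 to 106 in adult bladder and 848, 1418 and 104 in P1 replicates 1 to 3.

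Several skeletal muscle transcripts differed between the P1 arrays. P1 replicate 3 was compared with the mean of the other P1 arrays. It was lower by over 1 log2 unit for 4 of 10 fast, 3 of 8 slow and 3 of 10 myogenic genes. The same held for 1 of 13 thin filament, 1 of 5 developmental, 2 of 10 cardiac and 4 of 16 excitation and junction genes. It held for 0 of 13 smooth muscle genes and 5.51% of all genes. The light chain Mylpf read 2052, 2324 and 220.0 in P1 replicates 1 to 3, Myl1 3218, 2876 and 419, Myh3 13091, 10013 and 389, and titin, Ttn, 779, 648 and 51.4. Of the troponins, Tnni1 went with them, at -2.50 in that array. Tnnc2 (-0.46), Tnnt3 (0.04), Tnnt1 (0.45), Tnnc1 (-0.22) and Tnnt2 (0.22) lay closer to the other P1 arrays, and Tnni2 (-0.51) and Tnni3 (-0.87) between. The fetal light chain Myl4 (-0.19), Acta1 (0.51) and Actc1 (0.31) were not low in that array either. Myh8 (0.78) and Ckm (0.61) read highest there among the P1 arrays, and Pvalb (0.33) and Myh1 (0.29) were not low. To any degree, 7 of 10 fast, 8 of 8 slow and 4 of 5 developmental genes were lower in that array. So were 11 of 16 excitation and junction, 8 of 13 thin filament, 6 of 10 cardiac and 7 of 10 myogenic genes. For the troponins it was 5 of 8, for smooth muscle genes 2 of 13 and for all genes 9397 of 18193. The part of skeletal muscle content in the troponin values was not tested.

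Among the adult arrays, replicate 2 stood apart in Tnnt2 and Tnnt1. Relative to the mean of the other adult arrays its log2 level was -1.64 for Tnnt2 and -1.54 for Tnnt1, against 0.84, 0.79 and 0.69 for Tnnc1, Tnni2 and Tnnt3. Triadin, Trdn, a calcium release protein of striated muscle, read 14632, 1338 and 14539 in the adult arrays and was likewise low in replicate 2. It was the lowest there of the 16 excitation and junction genes, which ran from -3.40 to 1.95 with a median of 0.26. In the whole newborn Trdn read 138.6, below that array's median of 434. The arrays with more Tnnt2 were those with accessory gland transcripts, and the part of these in the Tnnt2 level was not tested. In P1 bladder, where those 7 glandular genes lay below the array median on all arrays, Tnnt2 was higher than in any adult array. Those arrays are of another stage, and what set adult replicate 2 apart in Tnnt2 was not tested.

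**Figure D4:**
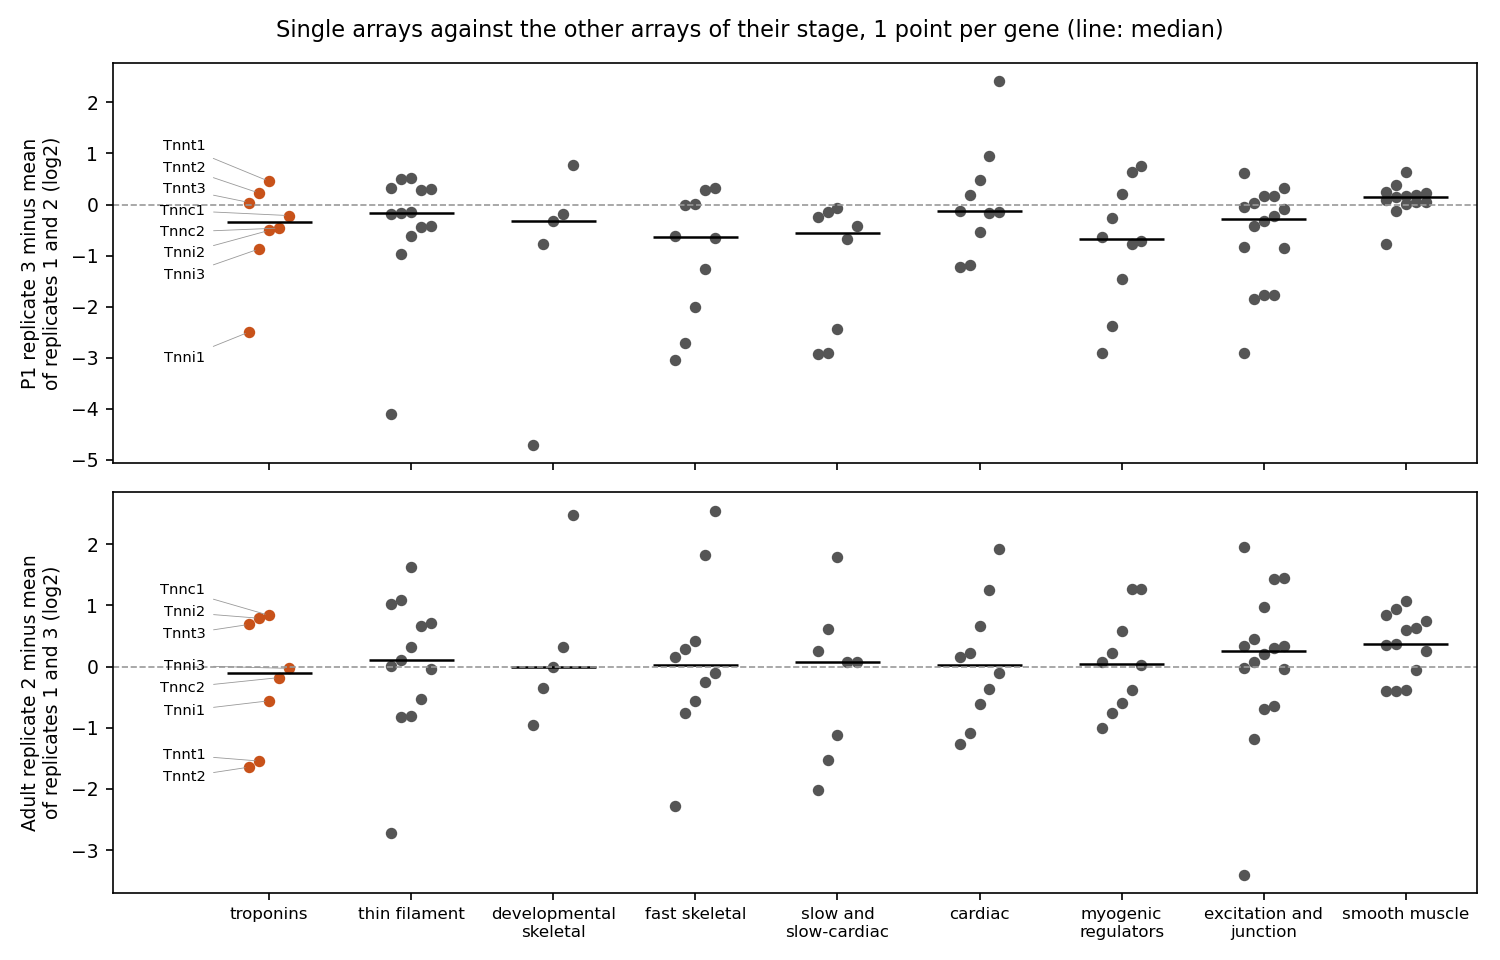
Log2 level of P1 replicate 3 minus the mean of the other P1 arrays (top) and of adult replicate 2 minus the mean of the other adult arrays (bottom), 1 point per gene, for the 8 troponins and 8 lists of muscle genes. Lines are medians. Tnni1 is the low troponin of the upper panel at -2.50, and Tnnt2 and Tnnt1 those of the lower panel at -1.64 and -1.54.

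The genes with the most similar profile to each troponin were sought by Pearson r over the 7 arrays, among 2863 genes that spanned at least 2 log2 units over the bladder arrays. The points share the stage split and the single reference, so that r describes these arrays only. Tnni2 and Tnni3 spanned too little (1.67 and 1.27). For Tnnc2 they were Dcx, a microtubule protein of young neurons (0.997), Stmn4, a stathmin (0.996), and Cav3, the caveolin of striated muscle (0.994). For Tnnt3 they were Ly6h (0.998), the fetal growth factor Igf2 (0.995) and Dcx (0.993). For Tnnt1 they were Birc5, a protein of dividing cells (0.992), cardiac actin Actc1 (0.992) and Ccdc85a (0.990). For Tnnc1 they were Eppk1, an epithelial plakin (0.991), Tinag (0.982) and Cysrt1 (0.978). For Tnni1 they were the protease inhibitor Serpinb1a (0.989), the matricellular protein Ccn3 (0.977) and the fast light chain Mylpf (0.976). Tnnt2 had its nearest matches in Wsb1 (0.983), Ap1s3 (0.962) and Pmaip1, a cell death factor (0.961). Wsb1 read 5204, 1722 and 4768 in adult bladder, 10736, 9209.5 and 9032 in P1 bladder and 1652 in the whole newborn, with adult replicate 2 low as for Tnnt2.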

How the data were processed

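Total RNA of 7 samples was amplified in 2 rounds and hybridized to 1-colour mouse arrays. The deposited values are linear intensities per probe set without detection calls. The authors' software was GCOS, per the submitters' processing notes. The sources used here do not give its version, summary method or scaling. Every array has about the same mean without its extreme 2% at each end (1499.8 to 1500), as arrays scaled to a common mean would. No 2 arrays shared more than 6 values.

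After 64 controls were left out, 45037 probe sets were tested without a filter, on log2(intensity + 49), a pseudocount taken at the 20th percentile of the intensities, with limma 3.58.1 in R 4.3.3 (lmFit, eBayes with a trend, Benjamini-Hochberg adjustment over all probe sets, threshold 0.05). The stage fit held 6 arrays and the reference fits 7. A lack of detection calls means that low values have no stated floor, and the number of arrays limits the precision. The tests were tried on simulated data.

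Lists: thin filament, fast, slow, developmental and cardiac muscle, myogenic regulators, excitation and junction, smooth muscle, urothelium, accessory glands, liver and blood. Up to 6 members of a list are named, by adjusted p of the stage fit, beside tissue checks and the 3 genes most like each troponin. The members, lists and tests were chosen with earlier results of these data known. The alternatives in the closing section were chosen in the same way.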

Additional observations from a re-analysis of the deposited data

How the results depend on the processing

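In the stage comparison 3 to 5 troponin genes were called when single arrays were left out, and 4 of 8 in each of the 10 other settings that kept all 6 arrays (pseudocounts of 17 and 165, median centring, quantile normalization, a filter at the array median, which left 6 of the 8 tested, no trend, robust, array weights, all 7 arrays, the mean of a gene's probe sets). Against the whole newborn, 6 genes were called in P1 bladder, 3 with median centring, and 3 to 6 when single arrays were left out (3 without P1 replicate 2 or 3). Adult bladder gave 6 to 8 genes. The log2 difference of Tnnt1 between P1 bladder and the whole newborn turned from -0.27 to 0.41 with median centring. Of the isoform ratios, Tnni3 over Tnni2 turned from 0.17 to -0.28 with the pseudocount of 17, and Tnnt2 over Tnnt1 moved from 2.59 to 2.24 with 165 and to 2.90 with the mean of probe sets. Over all 9 alternatives of each pair, Tnnc2 over Tnnc1 ran from -3.73 to -2.97, Tnnt3 over Tnnt2 from -3.90 to -2.53, Tnnt3 over Tnnt1 from -1.28 to -0.08, Tnni2 over Tnni1 from 0.51 to 1.74 and Tnni3 over Tnni1 from 0.78 to 1.80. Over all probe sets, 1258 were called between the stages, 3065 with array weights, 779 without adult replicate 2 and P1 replicate 3, and 243 to 588 without single arrays other than adult replicate 2 (1280). Against the whole newborn 2425 were called for P1 bladder, 3934 with array weights, 4169 without those 2 arrays and 1513 without P1 replicate 2. For adult bladder 3495 were called, 7245 with array weights, 5829 without those 2 arrays, and 1932 and 1896 without adult replicates 1 and 3. The cause of these moves was not tested. No paired analysis was possible because the replicate numbers follow the order of accession. Dim values, such as all of Tnni3 in bladder, limit what can be read.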
